A study of Mus musculus with 18 samples.

Results

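The genes described here are 10 genes of iron and heme handling, taken by symbol from the 24346 gene symbols of the series: Lcn2, Hp, Hpx, Hamp, Slc40a1, Tfrc, Trf, Steap4, Fth1 and Ftl1. All 10 were found. Poly(A) RNA was sequenced from male C57BL/6 mice, 9 weeks old, that had undergone cecal ligation and puncture (CLP), an operation that lets gut bacteria into the abdomen and causes sepsis. The H2 mice breathed 7% hydrogen gas from the end of surgery without a break, in a gas box that they shared, so that the gas and the housing cannot be told apart. The control mice had CLP and no gas. Liver, intestine and lung were taken at 24 h, with 3 libraries per organ and treatment (18 in 6 groups). All groups carry CLP, and mice with a sham operation were not analysed here. The labels do not say which organs came from the same mouse, nor that the replicates were separate mice, so the p-values measure the spread between these libraries.

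Infection sets off a contest for iron. The host lowers the iron that microbes can reach by keeping it inside cells and by binding it in plasma. The liver hormone hepcidin, encoded by Hamp, blocks the only known cellular iron exporter, ferroportin, encoded by Slc40a1. Transferrin (Trf) carries iron in plasma, and transferrin receptor 1 (Tfrc) takes it into cells, where the ferritin chains Fth1 and Ftl1 store it. Lipocalin 2 (Lcn2) binds bacterial siderophores, haptoglobin (Hp) binds free hemoglobin, and hemopexin (Hpx) binds free heme. Steap4 encodes a metalloreductase that is induced by inflammation. Iron also acts back on several of these RNAs through the iron-responsive element (IRE), a hairpin that iron regulatory proteins bind when iron is low. In a 5′ UTR this stops translation, and in the 3′ UTR of Tfrc it protects the RNA from decay.

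The IRE hairpins found by a pattern search show members that carry a match, and they are printed with the loop CAGTGN in capitals, from GENCODE vM21 transcripts on mm10.
Fth1, 5′ UTR, chr19:9982732-9982760, plus strand: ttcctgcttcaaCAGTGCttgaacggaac
Ftl1, 5′ UTR, chr7:45459779-45459807, minus strand: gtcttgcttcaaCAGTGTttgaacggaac
Slc40a1, 5′ UTR, chr1:45925465-45925493, minus strand: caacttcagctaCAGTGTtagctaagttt
Tfrc, 3′ UTR, chr16:32631219-32631247, plus strand: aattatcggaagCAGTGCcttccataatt
Tfrc, 3′ UTR, chr16:32631598-32631626, plus strand: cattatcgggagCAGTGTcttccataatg
Tfrc, 3′ UTR, chr16:32631663-32631691, plus strand: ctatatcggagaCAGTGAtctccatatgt
Tfrc, 3′ UTR, chr16:32631710-32631738, plus strand: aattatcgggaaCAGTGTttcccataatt
The ferritin hairpins share the loop bases CAGTG and most of the stem, and 4 different hairpins were found in the Tfrc 3′ UTR. The search asked for this loop on a paired stem, so elements of a looser form would be missed, in Tfrc and in other genes. Of 21877 coding genes searched in their UTRs, 23 (0.105%) hold such a hairpin, and 4 of the 10 members are among them. RNA level does not show translation, so what the 5′ UTR hairpins do cannot be read from these data.

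The upstream sequences of Steap4 and Lcn2 are shown because these RNAs moved together across the libraries, and that of Hamp because its control by cytokine and BMP signals is well known. Each is the 250 bases before the start site, from RefSeq on GRCm38.p6, with the matches found in capitals.
Steap4, chr5:7960222-7960471, plus strand: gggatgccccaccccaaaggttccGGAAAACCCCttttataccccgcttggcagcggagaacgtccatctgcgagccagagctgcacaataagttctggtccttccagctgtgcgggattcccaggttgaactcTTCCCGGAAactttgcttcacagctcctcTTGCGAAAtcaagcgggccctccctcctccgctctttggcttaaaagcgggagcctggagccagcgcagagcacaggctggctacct
Lcn2, chr2:32387740-32387989, minus strand: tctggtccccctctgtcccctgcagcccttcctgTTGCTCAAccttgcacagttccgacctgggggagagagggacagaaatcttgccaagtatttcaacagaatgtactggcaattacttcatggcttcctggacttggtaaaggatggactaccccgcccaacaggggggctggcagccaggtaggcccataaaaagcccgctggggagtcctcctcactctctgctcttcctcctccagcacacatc
Hamp, chr7:30944030-30944279, minus strand: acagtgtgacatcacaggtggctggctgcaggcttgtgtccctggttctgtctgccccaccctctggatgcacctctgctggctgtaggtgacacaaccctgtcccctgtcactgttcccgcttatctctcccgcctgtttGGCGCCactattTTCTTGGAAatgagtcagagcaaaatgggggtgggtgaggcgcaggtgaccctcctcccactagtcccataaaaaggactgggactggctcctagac
Steap4 holds the STAT motif TTCNNNGAA at -116 to -108, the C/EBP motif TTGCNNAA at -87 to -80 and an NF-kB motif on the other strand at -226 to -217. Lcn2 holds the C/EBP motif at -216 to -209, and Hamp holds the STAT motif at -97 to -89 and the BMP-responsive motif GGCGCC at -109 to -104. Both strands were searched over these 250 bases, and no matches shown here overlap. Among 32851 RefSeq promoters of that length, 7.02% hold the STAT motif, 9.56% the C/EBP motif, 0.365% this NF-kB form and 9.59% GGCGCC. Of the searched members not printed here, Hpx and Fth1 also hold the C/EBP motif and Tfrc holds GGCGCC, so these motifs are not particular to the genes shown. These are matches of letters, not tested sites, and 7 of the 10 members have an entry in that table.

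Levels are given in FPKM, that is, fragments scaled to transcript length and to the mapped total of the library, so that levels can be compared between genes. The depth implied by genes at a single fragment ran from 8.51 to 15.5 M fragments per library. Each organ carried its own marker, with the hepatocyte gene Alb at 9335 FPKM or more in the liver, the enterocyte gene Vil1 at 332 FPKM or more in the intestine and the surfactant gene Sftpc at 20779 FPKM or more in the lung. Summed FPKM was 1143000 in H2 intestine 2 and lay between 709800 and 850600 in the other 17 libraries. A change is the log2 difference, H2 minus control, of FPKM + 1, ± SE, and p-values come from limma, adjusted by Benjamini-Hochberg over all genes tested, with 0.05 as the threshold. With 3 against 3 libraries, an exact permutation test cannot give a p under 0.1. Among the controls, 2 libraries stood apart in what their removal did to the fits over all genes: without control liver 2 the share of genes called in the liver went from 0.0199% to 28.2%, and without control lung 3 that in the lung went from 0.00745% to 24.5%. In bulk tissue, fewer cells of a type and less RNA per cell cannot be told apart.

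In the mean over the 3 organs, 4 of the 10 genes were called lower with H2 and 0 higher. The mean log2 change was -1.0 ± 0.19 for Steap4 (adjusted p = 0.0116), -0.90 ± 0.21 for Lcn2 (adjusted p = 0.0234), -0.67 ± 0.17 for Hpx (adjusted p = 0.0303) and -0.53 ± 0.15 for Fth1 (adjusted p = 0.0440). Of all 13362 genes tested, 9.62% were called in this comparison, 4.39% higher and 5.23% lower. The median change was -0.54 over the members and 0.0027 over all genes. Since the 10 members were chosen with earlier results of these data known, setting them beside all genes is a description and not a test. Steap4, Lcn2, Fth1 and Hp had a negative log2 change in all 3 organs. The mean change of Hpx came mostly from the lung (log2 -2.01). In the liver Hpx changed by -0.10, and in the intestine its level was too low to test. The plot of log2 changes gives each organ beside the mean.

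**Figure D1:**
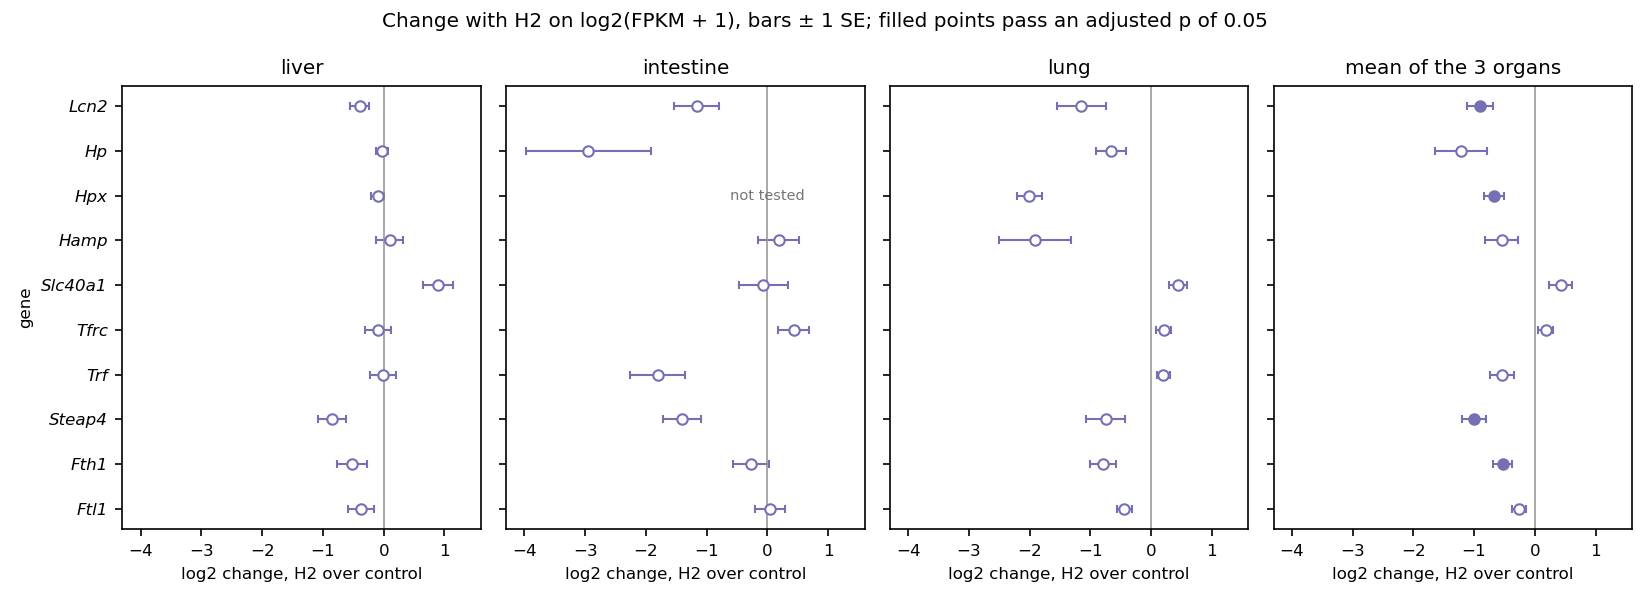
Change of each gene with H2 (x axis, H2 minus control in log2(FPKM + 1), bars ± 1 SE) in each organ and as the mean of the 3 organs. Filled points, the 4 genes Lcn2, Hpx, Steap4 and Fth1 in the panel of the mean, pass an adjusted p of 0.05, and Hpx was below the level filter in the intestine.

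Steap4 kept its call over the organs without any of the 18 libraries in turn, at an adjusted p of at most 0.0307. Lcn2 lost it without control liver 3 (adjusted p = 0.0515). Hpx stayed called without control liver 2, control intestine 2 or 3, H2 intestine 1 or 3, control lung 2 or 3, or H2 lung 1, and lost its call without any of the other 10 (adjusted p up to 0.0644). Fth1 stayed called without control liver 2, control intestine 2, H2 intestine 3 or control lung 3, and lost its call without any of the other 14 (adjusted p up to 0.0925). The fit takes the 18 libraries as independent. With the 3 organs averaged to 1 value per treatment and replicate number, the changes are the same in size and 0 members passed (adjusted p 0.0589 for Steap4, 0.101 for Lcn2, 0.108 for Hpx and 0.112 for Fth1), where 0.12% of all genes did.

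In single organs no member passed limma's adjusted threshold. In the liver 0 of 10 passed, where 0.0199% of all genes did, 3 had an unadjusted p under 0.05 (21.0% of all genes did), and for 2 of 10 the groups did not overlap, against 25.3% of all genes. The intestine had 0 of 9 called, where 0.0084% of all genes were, 4 with an unadjusted p under 0.05 (12.5% of all genes) and 3 without overlap (19.3% of all genes). In the lung 0 of 10 were called, where 0.00745% of all genes were, 7 had an unadjusted p under 0.05 (23.1% of all genes) and 7 showed no overlap (30.0% of all genes). In the tests of the difference between organs, 0 of 10 members passed in liver against intestine (0.217% of all genes) and 0 of 10 in liver against lung (0.239%), with 2 members each at an unadjusted p under 0.05 (15.5% and 12.3% of all genes). In intestine against lung the 1 of 10 that passed (1.24% of all genes) was Hpx, whose intestinal level lay below the filter, so that this count says little about the intestine. The members' median log2 change was -0.10 for liver, -0.27 for intestine and -0.71 for lung, beside medians over all genes of -0.02, 0.02 and -0.0036.

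**Figure D2:**
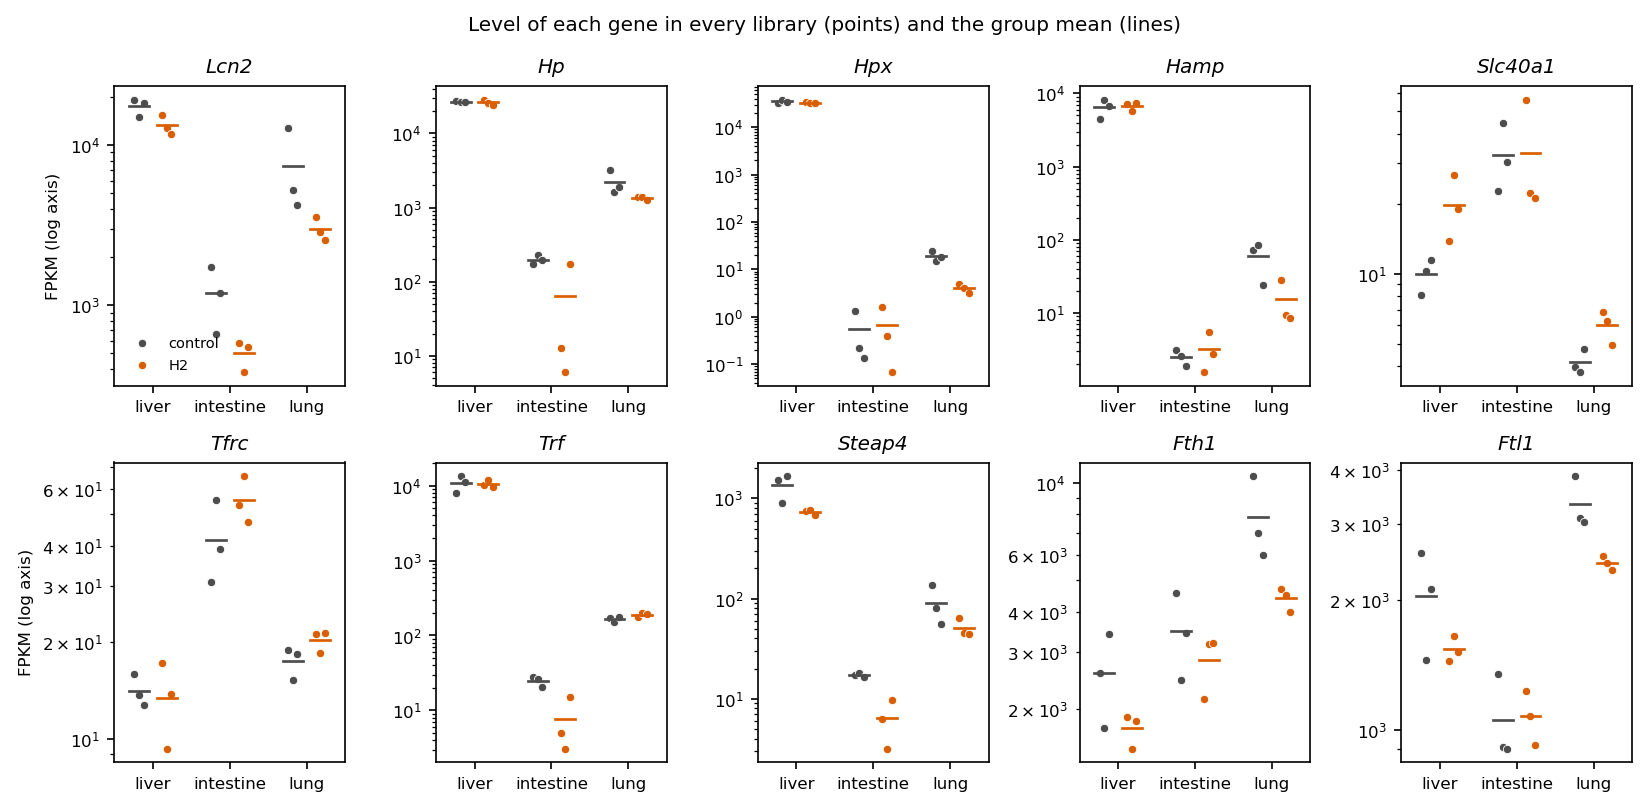
FPKM of the 10 genes on a log axis, by organ, with 1 point per library (grey control, orange H2) and a line at each group mean. In the lung the H2 points of Lcn2, Hp, Hpx, Fth1 and Ftl1 all lie below the control points, and in the liver only those of Steap4 lie below and those of Slc40a1 above.

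Lcn2 (chr2:32384633-32388252, minus strand) encodes the siderophore trap of the innate immune response. In the lung it measured 12732, 5218 and 4257 FPKM in control libraries 1 to 3 and 3557, 2854 and 2569 FPKM with H2. The groups did not overlap, and control lung 1 stood far above the others. The mean was 2.47-fold lower with H2 (log2 -1.15 ± 0.40, adjusted p = 0.184). In the intestine the controls measured 1737, 664 and 1196 FPKM and the H2 libraries 583, 381 and 549.5 FPKM, again without overlap and with a mean 2.38-fold lower (log2 -1.16 ± 0.37, adjusted p = 0.353). The liver held the highest levels, 19234, 14973 and 18230 FPKM without and 15511, 12716 and 11730 FPKM with H2, where H2 liver 1 lay above control liver 2 (log2 -0.39 ± 0.15, adjusted p = 0.217). The change did not differ between organs beyond its error, and the intestine minus lung difference was -0.02 with a 95% interval of -1.10 to 1.07. The liver minus intestine difference was 0.77 (95% interval -0.31 to 1.85) and the liver minus lung difference 0.75 (-0.33 to 1.84). These intervals are too wide to show that the changes were alike.

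Neutrophils carry LCN2 and haptoglobin in their granules, and the summed level of 9 neutrophil markers was therefore measured. In the lung it was 19425, 22737 and 29737 FPKM in the controls and 23532, 32754 and 19593 FPKM with H2. The groups overlapped, and control lung 1, with the highest Lcn2, had the lowest neutrophil sum, most of which was S100a8 and S100a9. The 9 markers did not run one way. The granule gene Camp measured 271, 323 and 281 FPKM in the controls and 149, 143 and 146 FPKM with H2, without overlap (log2 -0.99 ± 0.11, unadjusted p = 3.86e-05, adjusted p = 0.167). Ngp, another granule gene, had a log2 change of -0.35 ± 0.13, while Cxcr2 (0.60), Mmp9 (0.64), Mmp8 (0.85) and Retnlg (0.68) had positive ones. These 6 had an unadjusted p under 0.05, as 23.1% of all genes did, and 0 passed the adjusted threshold. Airway and alveolar cells were present in both groups, with sums of 25155 to 38949 FPKM in the controls and 33176 to 36415 FPKM with H2 for 6 alveolar type 2 markers, and of 147200 to 157420 FPKM and 120590 to 163410 FPKM for 4 club cell markers. Most of the club cell sum was Scgb1a1 (log2 -0.14). The other 3 club cell markers had positive changes, 2 of them at an unadjusted p under 0.05 (Cyp2f2 0.63 and Aldh1a7 0.52). Red cell markers, 8 in number, summed to 841 to 1860.1 FPKM and 994 to 1376 FPKM, with overlap. In the intestine the neutrophil sum was 1127, 129 and 427 FPKM in the controls and 446, 275 and 249.8 FPKM with H2, and control intestine 1, with the highest Lcn2, had the highest sum. The part of neutrophils in the Lcn2 difference was not tested.

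Hp (chr8:109575128-109579172, minus strand), the plasma scavenger of hemoglobin, did not separate the groups in the liver, its main source. It measured 27491, 26210 and 26559 FPKM in the controls and 28546, 25848 and 24395 FPKM with H2, and the log2 change of -0.03 had a 95% interval of -0.28 to 0.22. In the lung the controls measured 3189.8, 1626 and 1876 FPKM and the H2 libraries 1410.2, 1377 and 1249 FPKM. These groups did not overlap, and the H2 mean was 1.66-fold lower (log2 -0.67 ± 0.25, adjusted p = 0.196). The intestinal change of Hp had the largest SE of the set. Its controls measured 172, 229 and 197 FPKM, H2 intestine 1 and 2 measured 12.9 and 6.01 FPKM, and H2 intestine 3 measured 174 FPKM, inside the control range (log2 -2.95 ± 1.03, adjusted p = 0.369).

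Hpx (chr7:105591613-105600137, minus strand), the heme scavenger, had the smallest p of the 10 genes in the lung. Controls measured 24.8, 15.2 and 18.4 FPKM and H2 libraries 4.89, 4.11 and 3.14 FPKM, without overlap. The mean was 4.80-fold lower, a log2 change of -2.01 ± 0.21 (unadjusted p = 3.33e-05, adjusted p = 0.167). In the liver, where Hpx ranked 3 among all genes by control level, the controls measured 33236, 38273 and 33897 FPKM and the H2 libraries 34293, 32263 and 31716 FPKM (log2 -0.10 ± 0.11, adjusted p = 0.598). The intestine held 1.59 FPKM at most, below the filter of a mean of 1 FPKM. Hpx entered the fit of all libraries through liver and lung, and an intestinal fall of the size seen in the lung could not have shown at these levels, which also enter its mean over the organs. The intestine minus lung contrast of 2.10 ± 0.42 (adjusted p = 0.0333) therefore mostly restates the lung change. The liver minus lung difference of 1.91 ± 0.42 did not pass (adjusted p = 0.0651). Without 9 of the 18 libraries in turn the intestine minus lung contrast lost its call, with values between 1.74 and 2.42 and an adjusted p of up to 0.103. Those 9 are control liver 3, H2 liver 1, 2 and 3, control intestine 3, H2 intestine 2, control lung 1 and H2 lung 2 and 3.

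Since the liver makes most hemopexin, hepatocyte RNA in the lung libraries was measured beside it. The summed level of 9 hepatocyte markers was 11.5, 35.0 and 16.4 FPKM in control lung 1 to 3 and 20.8, 13.8 and 9.38 FPKM in H2 lung 1 to 3, which overlap. A large part of it was Cyp2e1, at 6.28, 12.2 and 13.3 FPKM against 13.9, 11.5 and 8.37 FPKM. Of 5 markers tested in the lung, Cyp2e1 had a positive log2 change (0.12). The other 4 had negative ones (Fgb -1.17, Alb -0.64, Ahsg -0.53 and Apoa2 -0.37). Among the 5, 0 had an unadjusted p under 0.05 (23.1% of all genes did). Alb, the defining marker, measured 0.998, 5.95 and 0.162 FPKM and 1.36, 0.515 and 0.192 FPKM. Control lung 1 held the highest Hpx, while Alb was highest in control lung 2, and control lung 3 held Hpx at 18.4 FPKM with Alb at 0.162 FPKM. The part of hepatocyte RNA in the Hpx difference was not tested.

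Hamp (chr7:30942368-30944032, minus strand), the hepcidin gene, did not separate the groups in the liver. Its controls measured 4536, 8225 and 6804 FPKM and its H2 libraries 7152, 5791 and 7478 FPKM (log2 0.10 ± 0.23, 95% interval -0.45 to 0.64). In the lung the controls measured 71.7, 83.8 and 23.9 FPKM and the H2 libraries 28.5, 9.27 and 8.52 FPKM. Control lung 3 lay below H2 lung 1, so the groups overlapped, and the mean was 3.88-fold lower with H2 (log2 -1.91 ± 0.59, adjusted p = 0.172). In the intestine all libraries lay between 1.55 and 5.49 FPKM. The neighbouring near-copy Hamp2 measured 3.26 to 48.3 FPKM in control and 9.99 to 54.7 FPKM in H2 livers, and how reads shared by the copies were counted is not stated in the available sources, so both values are uncertain.

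Slc40a1 (chr1:45908068-45926523, minus strand), the iron exporter that hepcidin blocks, had the larger of the 2 positive mean changes among the members, the other being that of Tfrc. In the liver it measured 8.11, 10.3 and 11.4 FPKM in the controls and 13.9, 26.7 and 19 FPKM with H2, without overlap and with a mean 2.0-fold higher (log2 0.90 ± 0.24, adjusted p = 0.168). In the lung it measured 3.96, 3.77 and 4.77 FPKM and 6.84, 6.30 and 4.94 FPKM, also without overlap (log2 0.44 ± 0.15, adjusted p = 0.18). The intestine, where the protein delivers absorbed iron to blood, had the highest level and no separation, with 22.8, 44.4 and 30.1 FPKM in controls and 56.1, 22.3 and 21.1 FPKM with H2. The mean over the organs was 0.42 ± 0.19 and did not pass (adjusted p = 0.139).

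Macrophages of the liver, the Kupffer cells, are a main site of Slc40a1, and most of their markers were higher in the same libraries. The sum of 11 macrophage and Kupffer cell markers was 269, 229 and 255 FPKM in the control livers and 385, 337 and 304 FPKM in the H2 livers. Of these 11 markers, 9 had an unadjusted p under 0.05 and were higher with H2 (21.0% of all genes had such a p), and 0 passed the adjusted threshold within the liver. The other 2, Marco, the most abundant of the list, at 151, 92.2 and 133 FPKM against 132, 79.5 and 79.0 FPKM, and Cd68 had negative changes (-0.38 ± 0.26 and -0.11 ± 0.16). The Kupffer cell gene Clec4f measured 6.63, 5.83 and 3.85 FPKM against 13.5, 18.6 and 19.2 FPKM, and Vsig4 2.13, 6.91 and 2.85 FPKM against 18.7, 24.9 and 16.0 FPKM. Cd163, the receptor that takes up haptoglobin bound to hemoglobin, measured 1.36, 3.2 and 2.78 FPKM against 4.77, 5.82 and 4.60 FPKM. In the lung the sum lay between 406 and 436 FPKM in the controls and between 329 and 416 FPKM with H2, which overlap, and Slc40a1 was higher with H2 there too. The part of these cells in the liver difference was not tested.

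Tfrc (chr16:32608920-32632794, plus strand), which takes transferrin into cells, overlapped between the groups in every organ. It measured 15.9, 13.8 and 12.8 FPKM against 17.2, 9.34 and 13.8 FPKM in the liver, 30.8, 55.4 and 39.0 FPKM against 53.6, 65.8 and 47.2 FPKM in the intestine, and 18.9, 15.3 and 18.4 FPKM against 21.3, 18.6 and 21.4 FPKM in the lung. The mean change was 0.18 with a 95% interval of -0.08 to 0.44.

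Trf (chr9:103204001-103230444, minus strand), the plasma iron carrier, had changes of opposite sign in intestine and lung. In the intestine it measured 28.3, 26.1 and 20.2 FPKM in the controls and 4.95, 3.08 and 15.2 FPKM with H2, without overlap (log2 -1.81 ± 0.46, adjusted p = 0.344). In the lung it was 170, 149.9 and 175 FPKM against 177, 197 and 195 FPKM, H2 higher without overlap but by a log2 of only 0.20 ± 0.11 (adjusted p = 0.286). In the liver it measured 7860, 13357 and 11325 FPKM against 10110, 11989 and 9550 FPKM, with a log2 change of -0.01 (95% interval -0.51 to 0.48). The intestine minus lung difference of the Trf changes was -2.01 ± 0.49 (adjusted p = 0.0566) and the liver minus intestine difference 1.80 ± 0.49 (adjusted p = 0.113), and neither passed. Exons of Trf overlap the read-through gene Gm20425 in the annotation, and how shared reads were assigned is not stated.

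Steap4 (chr5:7960457-7982213, plus strand), the inflammation-induced metalloreductase, separated the groups in 2 organs. The control livers measured 1508, 907 and 1667 FPKM and the H2 livers 747, 769 and 681 FPKM (log2 -0.85 ± 0.23, adjusted p = 0.168). The control intestines lay close together at 17.4, 18 and 16.6 FPKM, above the H2 intestines at 6.34, 3.17 and 9.80 FPKM (log2 -1.41 ± 0.32, adjusted p = 0.326). In the lung the controls measured 136, 81.2 and 56.1 FPKM and the H2 libraries 63.7, 45.0 and 44.8 FPKM, and control lung 3 lay below H2 lung 1 (log2 -0.75 ± 0.32, adjusted p = 0.223). Its change did not differ between organs beyond its error.

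In the intestine, the libraries with low Hp, Trf and Steap4 also had few adipocyte transcripts. The sum of 9 adipocyte markers was 484, 347 and 336 FPKM in the controls and 92.0, 102 and 269 FPKM in H2 intestine 1 to 3, without overlap. Of 8 adipocyte markers tested there, 6 were lower with H2 at an unadjusted p under 0.05 (12.5% of all genes had such a p) and 0 passed the adjusted threshold. The other 2 were Cidec (log2 -0.24 ± 0.26) and Lipe (0.15 ± 0.28). Adiponectin (Adipoq) measured 20.8, 17.5 and 14.5 FPKM in the controls, 0.0704 and 0.0997 FPKM in H2 intestine 1 and 2 and 11.6 FPKM in H2 intestine 3. The adipsin gene Cfd measured 131, 57.3 and 77.0 FPKM, then 0.302, 0.551 and 49.8 FPKM, lowest in H2 intestine 1 and 2. Lep was listed at 0 in both of these, Retn in H2 intestine 1 and Plin1 in H2 intestine 2. The summed level of 8 enterocyte markers was 2603 to 5718 FPKM in the controls and 4173 to 12065 FPKM with H2. The part of fat tissue in the intestinal differences was not tested.

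**Figure D3:**
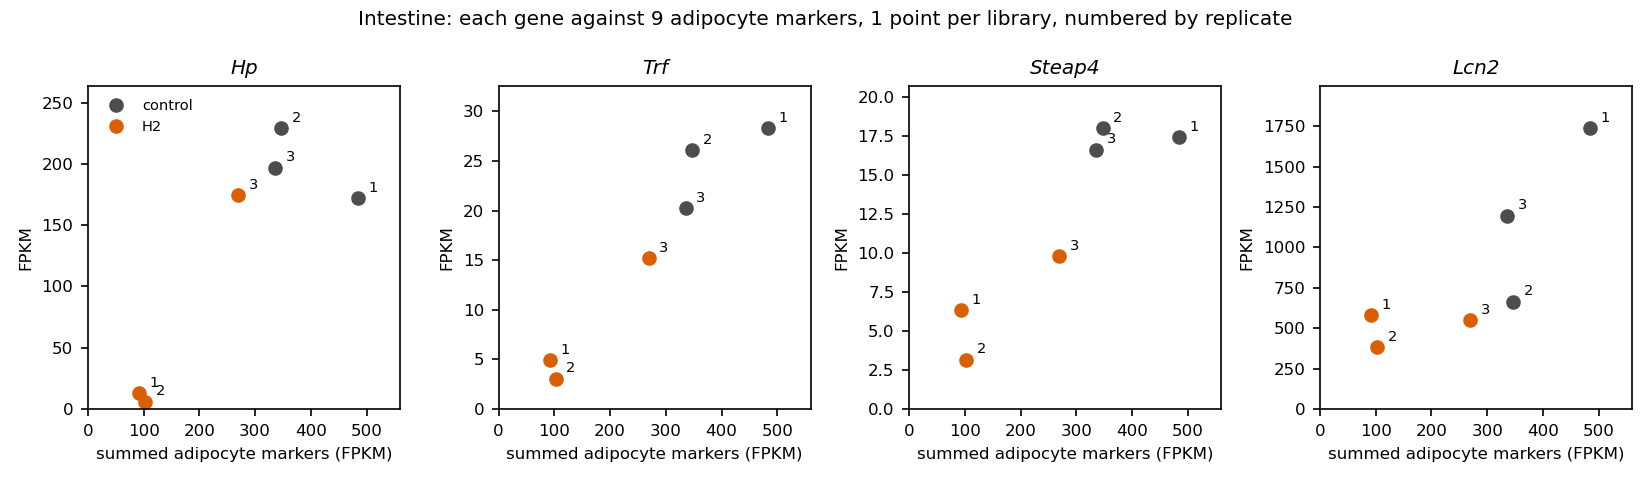
FPKM of Hp, Trf, Steap4 and Lcn2 (y axes) in the 6 intestine libraries against the summed FPKM of 9 adipocyte markers (x axes), 1 point per library with its replicate number. H2 intestine 1 and 2 sit at 92.0 and 102 FPKM of marker sum with the lowest Hp, Trf and Steap4, and H2 intestine 3 sits at 269 FPKM nearer to the controls.

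Of the ferritin chains, Fth1 fell over the organs and Ftl1 did not pass (mean log2 -0.26 ± 0.11, adjusted p = 0.137). Fth1 (chr19:9980598-9985098, plus strand), the heavy chain that oxidises iron for storage, measured 10483, 7001 and 5982 FPKM in the control lungs and 4699, 4489.9 and 4007 FPKM in the H2 lungs, without overlap and 1.78-fold lower on average (log2 -0.79 ± 0.21, adjusted p = 0.172). Ftl1 (chr7:45457944-45459884, minus strand), the light chain, measured 3876, 3098 and 3038 FPKM against 2536, 2432 and 2351 FPKM, also without overlap (log2 -0.44 ± 0.13, adjusted p = 0.172). The Fth1 level divided by the Ftl1 level was 2.31 ± 0.37 (SD, n = 3) in the control and 1.80 ± 0.08 (SD, n = 3) in the H2 lungs, with ranges of 1.97 to 2.70 and 1.70 to 1.85. Heavy chain RNA thus made up a larger share of ferritin RNA in every control lung than in any H2 lung. In the other organs the ratio overlapped, at 1.01 to 1.61 in control and 0.92 to 1.31 in H2 livers. The intestine had 2.71 to 3.80 in the controls and 1.75 to 3.48 with H2. The ratio was not tested.

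In the liver, Fth1 measured 2588, 1755 and 3415 FPKM against 1891, 1511 and 1845 FPKM, and Ftl1 2567, 1452 and 2119 FPKM against 1441, 1651 and 1517 FPKM. The log2 changes there were -0.52 ± 0.24 and -0.38 ± 0.21, and neither differed from that in the lung beyond its error (liver minus lung 0.27 ± 0.38 for Fth1 and 0.07 ± 0.28 for Ftl1). Control liver 2 had the lowest control value of both and lay inside the H2 range. In the intestine Fth1 measured 4562, 2468 and 3429.8 FPKM against 2157, 3187 and 3195 FPKM, and Ftl1 1348, 910.1 and 903 FPKM against 1231, 1077 and 919 FPKM, with overlap. Both genes have many processed pseudogenes, and Ftl1 exons overlap Gm10252 and Gm22133, so that their levels depend on an assignment of shared reads that is not stated.

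The single-organ counts rest on 3 libraries. Without control liver 2, 4 members passed in the liver: Steap4 (log2 -1.11, adjusted p = 0.00217), Fth1 (-0.77, adjusted p = 0.0199), Ftl1 (-0.60, adjusted p = 0.0208) and Slc40a1 (0.92, adjusted p = 0.0468). Of all genes, 28.2% passed then. The hepatocyte marker sums were 73762, 45402 and 58611 FPKM in control liver 1 to 3 and 53943, 53326 and 47562 FPKM with H2. They overlapped only through control liver 2, the lowest, and without it every H2 sum lay below the controls. Most of each sum was Fgb and Alb, the 2 of 9 markers with a negative log2 change (-0.51 and -0.11). The other 7 had positive ones, so the sum does not speak for the list. Fgb was lower and Cyp2e1 (0.77) higher with H2 without overlap, as were 25.3% of all genes in 1 direction or the other. The part of hepatocyte RNA in the liver results was not tested. Without control lung 3, 6 passed in the lung, namely Hpx, Hamp, Fth1, Lcn2 and Steap4 lower and Slc40a1 higher, where 24.5% of all genes passed. Control lung 3 had an adipocyte marker sum of 1051 FPKM, beside 189 to 335 FPKM in the other 5 lungs, and the part of this in the lung results was not tested. Without H2 intestine 3, Hp (-4.33, adjusted p = 0.0116) and Trf (-2.38, adjusted p = 0.0338) passed in the intestine, where 0.152% of all genes did. Leaving out any other library of the organ left 0 members called in that organ.

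Across organs, the control libraries gave each gene an order of levels. The plasma proteins Hpx, Hp, Trf and Hamp were highest in the liver, where Hpx averaged 35135 ± 2738 FPKM, Hp 26753 ± 662 FPKM, Trf 10847 ± 2780 FPKM and Hamp 6522 ± 1860.4 FPKM (SD, n = 3). The lung came next for these 4 and the intestine last, and Lcn2 and Steap4 had the same order. For each of these 6 genes all 3 organ contrasts passed, the smallest difference being that of Lcn2 in liver over lung (log2 1.40 ± 0.36, adjusted p = 0.00183), which turned to -0.32 after quantile normalization. Of the 10 members, 9 passed in liver against intestine, 9 in liver against lung and 10 in intestine against lung, where 72.6%, 85.1% and 68.9% of all genes passed. The median log2 difference over all genes was -0.64, -1.17 and -0.45 in these contrasts, so that member differences near those sizes depend on the scaling.

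The cell-side genes had other orders. Slc40a1 and Tfrc were highest in the intestine, with 32.4 ± 11 FPKM and 41.8 ± 12.5 FPKM (SD, n = 3). Slc40a1 followed in the liver and then the lung. Tfrc in liver and lung did not differ beyond its spread (log2 -0.29 ± 0.21, adjusted p = 0.210), and this contrast turned to 1.04 under median-of-ratios scaling and to 0.86 under quantile normalization. The ferritins were highest in the lung, Fth1 at 7822 ± 2360.1 FPKM and Ftl1 at 3337 ± 468 FPKM (SD, n = 3). Median-of-ratios scaling turned the liver minus lung contrast of Ftl1 from -0.74 to 0.68 and reduced that of Fth1 from -1.61 to -0.19. Fth1 in liver and intestine did not pass (log2 -0.44 ± 0.27, adjusted p = 0.148), and it turned to 0.42 under that scaling. The 10 genes together made up 11.7 to 13.4% of summed FPKM in the liver, 1.47 to 3.66% in the lung and 0.416 to 1.08% in the intestine.

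Within organs, some members moved together from library to library. With each organ's mean taken out, over the 18 libraries, Pearson's r was 0.91 for Hp with Trf, 0.83 for Lcn2 with Steap4, 0.77 for Lcn2 with Fth1 and 0.77 for Hp with Steap4. The lowest was -0.67, for Slc40a1 with Fth1. Of the 45 pairs, 24 were above 0 and 21 below. These r values describe libraries that share treatment, depth and scaling, and carry no test. Hp and Trf were both lowest for their organ in H2 intestine 1 and 2, and Lcn2 and Steap4 were both high in control intestine 1 and control lung 1.

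Among 13362 genes, those most like Lcn2 by this measure were Ptges, the inducible prostaglandin E synthase, with r = 0.97, Rrm2 (0.96) and Irak3 (0.96). The gene most like Hp was the adipsin gene Cfd (0.95). Hpx was most like Lypd6b (0.90), Slc40a1 most like the amino acid transporter gene Slc1a4 (0.80) and Tfrc most like Zufsp (0.87). Trf came nearest to Dennd5a (0.94), Steap4 to Nol6 (0.96), Fth1 to the kinase gene Map4k4 (0.90) and Ftl1 to the glycolysis gene Gapdh (0.93). Slc40a1 had the lowest best match of the 10.

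**Figure D4:**
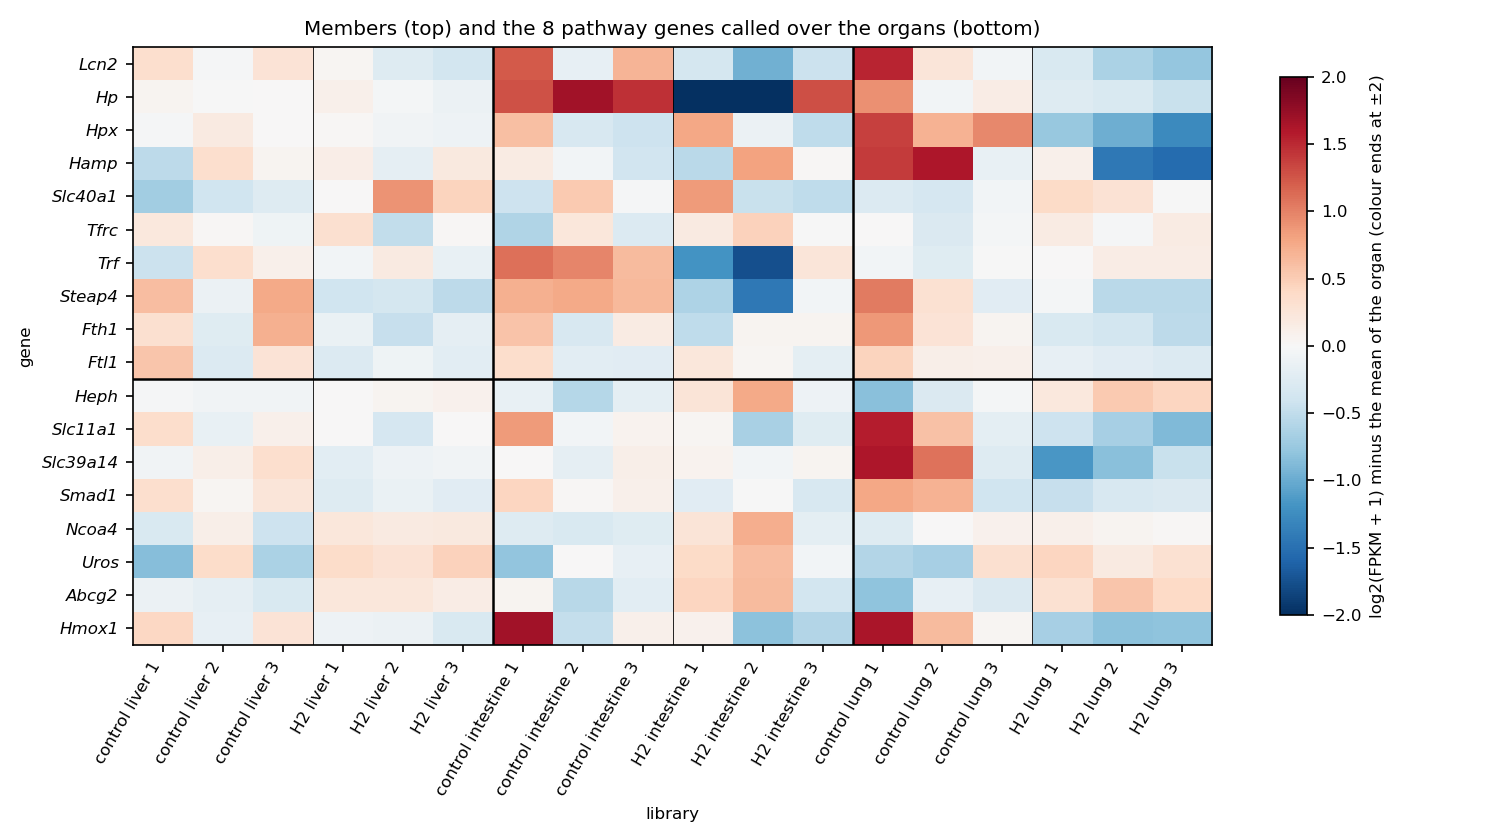
Log2(FPKM + 1) of each gene minus its mean over the 6 libraries of the organ (colour, ends at ±2), for the 10 members above the line and 8 further iron and heme genes called over the organs below it. Control lung 1 is the reddest library for Lcn2, Hpx, Slc11a1 and Slc39a14, and H2 intestine 1 and 2 are the bluest for Hp and Trf.

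The wider pathway was described with 5 lists of 67 genes, of which 65 were tested over the organs. Of these, 4 rose and 4 fell, 12.3% in all against 9.62% of all genes, and their median change was 0.06. None of the 67 passed in a single organ, while 20 of 58 tested in the liver, 3 of 56 in the intestine and 16 of 62 in the lung had an unadjusted p under 0.05, beside 21.0%, 12.5% and 23.1% of all genes. Of the 8 called genes, Abcg2 lost its call without control liver 3 (adjusted p = 0.0515), Heph lost it without 7 of the 18 libraries in turn and the other 6 genes without 12 to 15 of them, at adjusted p-values of up to 0.105.

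Among 13 iron transport genes, 12 were tested, with 1 higher and 2 lower. Hephaestin (Heph), the ferroxidase that works with ferroportin at the basal side of enterocytes, rose by 0.49 ± 0.12 over the organs (adjusted p = 0.0281). In the intestine it measured 78.5, 58.1 and 76.2 FPKM in the controls and 104, 147 and 80.8 FPKM with H2. The zinc and iron importer gene Slc39a14 fell by 0.62 ± 0.19 (adjusted p = 0.0497), and in the lung it measured 75.5, 52.0 and 19.7 FPKM against 10.2, 13 and 17.3 FPKM. Its intestinal groups overlapped. There, log2(FPKM + 1) minus the organ mean was 0.00014, -0.17 and 0.11 in the controls and 0.063, -0.056 and 0.054 with H2. In the liver these values were -0.063, 0.12 and 0.33 against -0.20, -0.10 and -0.078. Slc11a1, which moves iron out of the phagosome of macrophages and neutrophils, fell by 0.70 ± 0.20 (adjusted p = 0.0418), with lung values of 66.9, 33.3 and 18.9 FPKM against 16.1, 13.4 and 11.3 FPKM. In the lungs both genes had their highest value in control lung 1.

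Of 18 genes that control hepcidin, all tested, 0 rose and 1 fell. Smad1, which carries the BMP signal to the Hamp promoter, fell by 0.50 ± 0.13 (adjusted p = 0.0347), with liver values of 8.46, 6.67 and 7.85 FPKM against 5.27, 5.85 and 5.41 FPKM. The inhibitory Smad7 changed by 0.38 ± 0.13 and did not pass (adjusted p = 0.0669). In the liver the smallest p-values of the list belonged to the ligand gene Bmp2, at 0.311, 1.72 and 0.844 FPKM against 2.72, 3.13 and 3.82 FPKM (adjusted p = 0.167), and to the BMP target Id1, at 10.7, 19.8 and 17.6 FPKM against 10.5, 7.17 and 7.10 FPKM (adjusted p = 0.168). The lung had Bmp6, the ligand gene known for iron sensing in the liver, at 12.6, 27.3 and 28.2 FPKM against 40.1, 39.3 and 52.3 FPKM (adjusted p = 0.172). Bmp2 was thus higher and Id1 lower in all 3 H2 livers, without overlap.

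For iron storage, sensing and mitochondrial iron, 12 of 13 genes were tested and 1 rose. Ncoa4, the receptor that delivers ferritin to the lysosome for iron release, rose by 0.35 ± 0.11 (adjusted p = 0.0492). It measured 34.1, 46.1 and 31.5 FPKM against 50.0, 48.1 and 49.0 FPKM in the liver, without overlap, and 30.7, 29.8 and 31.0 FPKM against 44.5, 62.0 and 32.3 FPKM in the intestine. Pcbp2, an iron chaperone gene, changed by -0.23 ± 0.08 and did not pass (adjusted p = 0.0744).

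All 10 heme synthesis genes were tested over the organs, 1 rose, and all 10 had a positive mean change, with a median of 0.20. Of all genes, 4.39% were called higher there. The shift was largest for liver, with a median of 0.42, 9 of 10 changes positive and 6 at an unadjusted p under 0.05. Such a p was seen for 21.0% of all genes. Lung changes had a median of 0.08, with 7 positive and 3 negative. Intestinal ones had a median of 0.05, with 6 positive and 3 negative. Uros, uroporphyrinogen III synthase, rose by 0.67 ± 0.18 (adjusted p = 0.0352). In the liver it measured 4.58, 12 and 5.53 FPKM against 12, 11.4 and 12.9 FPKM, and control liver 2 lay inside the H2 range. Alad, an earlier enzyme of the pathway, changed by 0.41 ± 0.15 and did not pass (adjusted p = 0.0862). Its liver values had the same pattern, 5.42, 13.1 and 5.42 FPKM against 14.9, 13 and 14.7 FPKM.

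The last list, heme breakdown, scavenging and transport, had 13 tested genes, 1 higher and 1 lower. Heme oxygenase 1 (Hmox1), which opens the heme ring and frees its iron, fell by 0.92 ± 0.26 (adjusted p = 0.0401). Its lung values were 218, 108 and 71.5 FPKM against 43.8, 38.9 and 39.4 FPKM, without overlap and highest in control lung 1, as for Lcn2, Hp, Hpx, Steap4, Fth1 and Ftl1. The heme exporter gene Abcg2 rose by 0.57 ± 0.13 (adjusted p = 0.0226), with lung values of 7.37, 12.1 and 10.9 FPKM against 17.0, 20.4 and 18.3 FPKM. In the liver the smallest p-values of the list were those of the heme and folate importer gene Slc46a1, at 4.26, 7.24 and 3.63 FPKM against 10.9, 12.9 and 11.3 FPKM (adjusted p = 0.147), and of the biliverdin reductase B gene Blvrb, at 65.8, 74.7 and 77.9 FPKM against 99.7, 147 and 109.6 FPKM (adjusted p = 0.167).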

How the data were processed

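Per the labels, RNA extraction used a miRNeasy Micro kit, followed by TruSeq stranded mRNA library preparation. Genome build mm10 is named in the submitters' processing notes, beside Cufflinks 2.2.1, TopHat2 2.0.13, SAMtools 0.1.19 and Bowtie2 2.2.3. The annotation, options, strand setting and treatment of shared reads are not given in the sources used here. FPKM were made and deposited by the authors, 1 value per gene and library, with no further scaling stated. FPKM hold no read counts, so no counting interval can be given for a single value. In the file of control lung 2, a further column repeats control lung 3 (0 values differ) and was not used. Groups follow the sample titles. The description fields of H2 replicates 2 and 3 print the gas with another number, which was read as a numbering slip.

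Log2(FPKM + 1) was fitted with limma 3.58.1 in R 4.3.3 (empirical Bayes with trend, two-sided), over genes with a mean of at least 1 FPKM. Each organ was fitted on its 6 libraries. The mean over organs, the differences between organs and the control contrasts came from 1 fit of all 18. The scripts were tested on simulated data. The 10 members, the 5 pathway lists (67 genes, all found, 4 by an older symbol) and the 8 marker lists (65 genes, 64 found) were chosen with earlier results of these data known. Named are the 10 members, in each organ and over the organs the called genes of each pathway list or, where fewer than 2 were called, the 2 with the smallest p, of which only some are printed, and the nearest of the 3 genes most like each member (small RNA and predicted genes left out), which is not reported here for Hamp. Cd163, Hamp2 and the marker genes printed were named after their values were seen. Gene positions and hairpins come from GENCODE vM21 (mm10), promoters from RefSeq (GRCm38.p6). Alternatives were other pseudocounts, filters, scalings and empirical Bayes settings, a replicate block, 1 fit for all organs, 1 mean over the organs, and each library left out.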

Additional observations from a re-analysis of the deposited data

Results flagged for a closer look

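The H2 change of Hpx in the intestine minus that in the lung was a log2 of 2.10 ± 0.42 (adjusted p = 0.0333, limma's interaction contrast), but the intestinal level lay below the filter and the contrast mostly restates the lung change. In the lung, controls averaged 19.4 ± 4.88 FPKM and H2 libraries 4.05 ± 0.88 FPKM (SD, n = 3), and all 3 H2 libraries lay below all 3 controls. In the intestine the level was 0.56 ± 0.66 FPKM against 0.69 ± 0.80 FPKM (SD, n = 3), where the groups overlapped and 1.59 FPKM was the highest value. Leaving out each library in turn gave 1.74 to 2.42, and Hpx lost the call at a pseudocount of 0.1 and after median-of-ratios scaling.

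The change of Neo1, which encodes the hemojuvelin receptor neogenin, differed between these organs, by a log2 of -0.91 (adjusted p = 0.0490). In the lung it measured 5.83, 7.78 and 7.93 FPKM in the controls and 10, 11.3 and 12 FPKM with H2, without overlap. The intestine had 12.5, 8.82 and 8.84 FPKM against 7.46, 6.68 and 8.91 FPKM, with overlap. The difference lay between -1.01 and -0.76 with each library left out, and it stayed called without control intestine 2, H2 intestine 3 or control lung 3 and lost its call without any of the other 15 (adjusted p up to 0.132).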

How the results depend on the processing

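Counts of members called moved as follows. With all 18 libraries in 1 fit, 2 passed in the intestine (Steap4 and Trf, beside 1.68% of all genes) and 2 in the lung (Hamp and Hpx, beside 4.0%). With 1 mean over the organs per treatment and number, 0 passed over the organs. The liver against lung difference of Hpx gave 1 call at a pseudocount of 5 and 1 with the replicate block. The intestine against lung differences gave 0 calls at a pseudocount of 0.1 and 0 after median-of-ratios scaling, and 2 (Hpx and Trf) at a pseudocount of 5. Leaving out each library gave 0 to 4 members in the liver, 0 to 2 in the intestine, 0 to 6 in the lung and 1 to 6 over the organs. For the differences it gave 0 to 2 in liver against intestine, 0 to 2 in liver against lung and 0 to 3 in intestine against lung, and for the control contrasts 9 to 10, 9 to 9 and 10 to 10.

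Whether the replicate numbers mark a pairing or a batch is not settled here. The deviations of same-numbered control and H2 libraries correlated at 0.33, -0.08 and 0.03 in the liver. They did so at 0.16, -0.11 and -0.03 in the intestine and -0.01, 0.12 and 0.01 in the lung. Differently numbered libraries gave -0.29 to 0.25. The club cell gene Scgb1a1 was above 0 only in replicate 1 of both treatments in liver (4.30 FPKM in control, 5.07 FPKM with H2) and intestine (3.22 and 5.27 FPKM). The replicate block left 3 members called over the organs (Hpx, Lcn2 and Steap4), with Fth1 at an adjusted p of 0.0588, and moved all genes called there from 1285 to 680. Fth1 also missed the threshold with no filter (adjusted p = 0.0835) and after quantile normalization (0.0520), and Hpx at a pseudocount of 0.1 (0.216).

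Quantile normalization reversed small log2 changes in the liver (Hp 0.17, Hpx 0.074, Trf 0.14) and intestine (Ftl1 -0.20), differences in liver against intestine (Fth1 0.50, Ftl1 0.021), liver against lung (Steap4 0.054) and intestine against lung (Fth1 -0.21), and the liver against lung control contrasts of Lcn2 (-0.32) and Tfrc (0.86). Median-of-ratios scaling reversed the control contrasts of Fth1 in liver against intestine (0.42) and of Tfrc (1.04) and Ftl1 (0.68) in liver against lung. With each library left out, the ranges that crossed 0 were -0.16 to 0.25 for Ftl1 and -0.43 to 0.20 for Steap4 (liver against lung), -0.41 to 0.26 for Hamp and -0.52 to 0.17 for Hpx (liver against intestine) and -0.50 to 0.30 for Lcn2 (intestine against lung). They were -0.057 to 0.24 for Ftl1, -0.17 to 0.50 for Hamp and -0.51 to 0.18 for Slc40a1 in the intestine, and -0.14 to 0.28 for Hamp, -0.091 to 0.022 for Hp, -0.28 to 0.12 for Tfrc and -0.23 to 0.15 for Trf in the liver. The cause of these shifts was not tested.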
